A study of Homo sapiens with 24 samples.

Results

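The 6 abundant long noncoding RNAs NEAT1, MALAT1, KCNQ1OT1, TUG1, OIP5-AS1 and NORAD were followed through 24 libraries of 2 ER-negative breast cancer cell lines. They were chosen by name from a table of 59609 gene symbols because NEAT1 rises when MDA-MB-453 cells receive both drugs, so every comparison that contains those combination libraries is given here as a description, with values and no test. All 6 had a row and at least 1 count, among 24756 gene symbols with any count. MDA-MB-231, a mesenchymal line grown in RPMI, and MDA-MB-453, an epithelial line grown in DMEM, are both labelled wild-type and stand for 1 tumour each. The arms of each line were vehicle (DMSO), 500 nM abemaciclib, 5 nM fulvestrant, and both drugs at these doses (the combination), all over 5 days, with n = 3 biological replicates in each of the 8 groups. Abemaciclib inhibits the cell-cycle kinases CDK4 and CDK6, and fulvestrant is an antagonist and degrader of the oestrogen receptor, so that the arms show what each drug does alone and together in cells that make little of the receptor.

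Long noncoding RNAs act as RNA rather than through a protein. NEAT1 is the scaffold of paraspeckles, nuclear bodies that hold RNA-binding proteins, and MALAT1, its neighbour on the chromosome, lies in nuclear speckles beside splicing factors. KCNQ1OT1 is transcribed antisense to KCNQ1 from the paternal chromosome and silences genes around it, whereas NORAD is an abundant cytoplasmic RNA that binds proteins, OIP5-AS1 pairs with a microRNA and binds the RNA-stabilising protein ELAVL1, and TUG1 is a broadly expressed, conserved transcript of the nucleus and cytoplasm. MALAT1 and the long isoform of NEAT1 end without a poly(A) tail, in a triple helix left by RNase P cleavage, while the short NEAT1 isoform is polyadenylated.

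Libraries were made with QuantSeq 3′ FWD, in which an oligo(dT) primer starts each cDNA. A run of A within a transcript can therefore be primed as well as a tail, and the longest A-rich run of 4 members is shown for this reason. The sequences are from the hg38 genome in transcript orientation, capitals mark the run in which windows of 20 bases hold at least 15 A, and the lower-case flanks are 15 bases on each side.

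NEAT1: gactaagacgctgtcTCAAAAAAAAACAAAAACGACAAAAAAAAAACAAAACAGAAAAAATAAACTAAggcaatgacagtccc
MALAT1: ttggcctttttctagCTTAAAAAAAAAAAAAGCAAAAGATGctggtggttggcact
KCNQ1OT1: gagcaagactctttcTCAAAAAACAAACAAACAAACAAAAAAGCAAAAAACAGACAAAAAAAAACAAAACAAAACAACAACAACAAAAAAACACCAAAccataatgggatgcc
TUG1: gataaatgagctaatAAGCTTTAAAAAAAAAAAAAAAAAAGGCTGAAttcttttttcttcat

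The capitals cover chr11:65440459-65440511 (+ strand) for NEAT1, 5029 bases before the end of the annotated gene, and chr11:65506095-65506120 (+) for MALAT1, 1953 bases before its end. They cover chr11:2620915-2620997 (− strand) for KCNQ1OT1 and chr22:30976057-30976088 (+) for TUG1. Each lies in an annotated exon. The exons of NEAT1 held 4 such runs, those of MALAT1 1, KCNQ1OT1 60, TUG1 2 and OIP5-AS1 10, and those of NORAD held 0. Per kilobase of exon, NEAT1 had 2.86 A-rich windows, above 82.6% of the tested genes, MALAT1 had 0.671, above 56.5%, and the median over tested genes was 0.324. The count table gives 1 value per gene, so reads from such a run and reads from the 3′ end were not separated.

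In the GENCODE v44 annotation on GRCh38, NEAT1 spans chr11:65422774-65445540 and MALAT1 chr11:65497640-65508073, both on the + strand and each annotated as 1 block of exon. KCNQ1OT1 lies at chr11:2597308-2700003 on the − strand, TUG1 at chr22:30969245-30979395 (+), OIP5-AS1 at chr15:41283958-41322392 (+) and NORAD at chr20:36045618-36051018 (−). TUG1 is annotated there as protein coding and the other 5 as long noncoding. The study counted reads on an earlier GENCODE release. The gene ends, exon overlaps and A-rich windows given here may therefore differ from those of the counted genes. MALAT1 shares 8121 exon bases with the antisense RNA TALAM1, and OIP5-AS1 shares 759 with OIP5 on the opposite strand. Since the strand used in counting is not stated, reads of such partners cannot be told apart. On its own strand OIP5-AS1 shares 513 exon bases with a protein-coding gene without a symbol and 195 with NUSAP1.

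Library totals ran from 2873558 to 4158762 counts. The 7 MDA-MB-231 marker genes summed to between 2693 and 3412 CPM (counts per 1000000 of the library) in MDA-MB-231 and to at most 1.39 CPM in MDA-MB-453, where VIM, CD44, AXL and CAV1 were at 0. The oestrogen receptor gene ESR1 had 8 counts in 2 libraries of MDA-MB-231 and 8 in 1 library of MDA-MB-453. The 6 members took 0.0691% to 0.125% of an MDA-MB-231 library. Their share of an MDA-MB-453 library was 0.184% to 0.203% under DMSO and 0.851% to 1.09% under the combination. Most of that share was MALAT1, with means of 1568 CPM under DMSO and 8402 CPM under the combination. NEAT1 had means of 33.0 and 455 CPM in those groups. The mitochondrial share of counts also moved with treatment, from 15.2% ± 0.650 (SD, n = 3) under DMSO to 23.8% ± 1.91 under abemaciclib in MDA-MB-453, and from 8.83% ± 0.213 to 12.2% ± 1.05 in the other line. With mitochondrial genes left out of the fit, the same number of members was called in every comparison with DMSO. In these bulk cultures, fewer cells that make an RNA and less of it per cell cannot be told apart. CPM values use the total of all counts, and fold changes are on the scale of the edgeR fit, which rescales libraries.

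NEAT1 was at a like level in both lines under DMSO and stood apart in the MDA-MB-453 combination. The 3 DMSO libraries of MDA-MB-453 had 33.3, 35.9 and 29.9 CPM. Abemaciclib gave 72.9, 48.4 and 59.2 CPM, and fulvestrant gave 52.8, 40.2 and 28.9 CPM. The combination gave 334, 617 and 415 CPM, which rest on 961, 2129 and 1625 counts. Every combination library was above all 9 others of the line, and the second replicate was the highest. On the fitted scale the combination was 13.7-fold DMSO (log2 fold change 3.78) and 7.12-fold abemaciclib alone (2.83), which placed NEAT1 at rank 22 and rank 18 of 11080 genes ordered by those changes. The combination effect exceeded the sum of the single-drug effects by 2.58 on the log2 scale. These are the values for which the RNAs were chosen, and they carry no test. Without the second replicate the change against DMSO was 3.50, and without the first it was 3.95.

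The test of NEAT1 with abemaciclib alone compared abemaciclib with DMSO libraries, not the combination libraries that led to the choice. The choice names no comparator, and members and tests were chosen with earlier results known. The DMSO and abemaciclib libraries may therefore have entered the choice, and the test cannot be taken as independent of it. In MDA-MB-453, NEAT1 went from 33.0 ± 2.98 CPM (SD, n = 3) under DMSO to 60.2 ± 12.2 under abemaciclib, and the groups did not overlap. This was a log2 fold change of 0.95 (SE 0.18, 95% interval 0.59 to 1.30, edgeR adjusted p = 2.7e-05), called under all 14 alternatives. Fulvestrant alone gave 40.6 ± 11.9 CPM, which overlapped DMSO (log2 fold change 0.25, edgeR adjusted p = 0.606).

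In MDA-MB-231 the NEAT1 values of the 4 groups overlapped. DMSO libraries had 39.3, 53.7 and 38.5 CPM, abemaciclib libraries 31.8, 29.2 and 42.5 CPM, and fulvestrant libraries 50.8, 30.1 and 42.1 CPM. The combination gave 47.2, 46.9 and 26.0 CPM, overlapping every other group. The log2 fold change was −0.34 for abemaciclib against DMSO (95% interval −0.76 to 0.07, edgeR adjusted p = 0.198; with the A-stretch covariate described below for MALAT1, −0.74 and called lower, edgeR adjusted p = 0.015) and −0.14 for the combination against DMSO (−0.54 to 0.26, edgeR adjusted p = 0.631). Tested as a difference, the abemaciclib effect on NEAT1 was higher in MDA-MB-453 than in MDA-MB-231 by 1.30 on the log2 scale (SE 0.30, edgeR adjusted p = 0.00106). That test shares the MDA-MB-453 DMSO and abemaciclib libraries and cannot be taken as independent of the choice either.

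**Figure D1:**
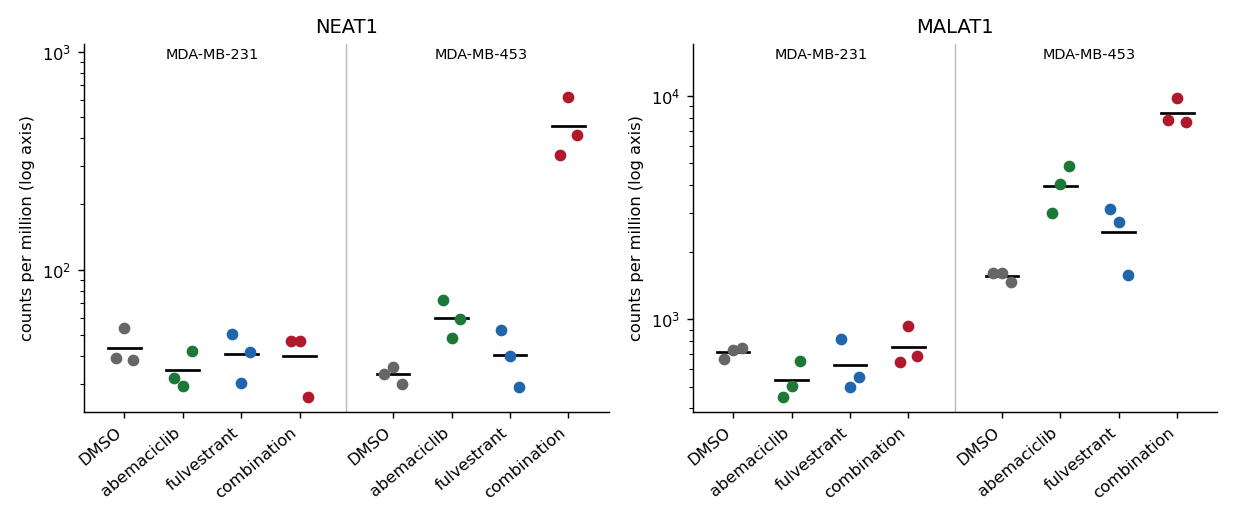
NEAT1 and MALAT1 in CPM, on log axes, for each of the 24 libraries; points are libraries, bars are group means of n = 3, and the line divides MDA-MB-231 from MDA-MB-453. The 3 MDA-MB-453 combination libraries lie between 334 and 617 CPM for NEAT1 and between 7613 and 9774 CPM for MALAT1, above all other libraries.

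MALAT1, the member with the most counts, rose with abemaciclib in MDA-MB-453. Its rise with fulvestrant there and its fall with abemaciclib in MDA-MB-231 passed the threshold in the full fit but not in every alternative. In MDA-MB-453 the DMSO libraries had 1616, 1615 and 1473 CPM. Abemaciclib gave 2983, 4021 and 4881 CPM, all above DMSO. Fulvestrant gave 3117, 2725 and 1576 CPM, so that the third replicate was at the DMSO level and the other two were not. The combination gave 7819, 9774 and 7613 CPM, above every other library. The abemaciclib effect was a log2 fold change of 1.43 (SE 0.13, edgeR adjusted p = 3.8e-12), or 2.69-fold, and it was called in all 14 alternatives. As a description, the combination was 5.34-fold DMSO and 1.98-fold abemaciclib, log2 fold changes of 2.42 and 0.99, and it exceeded the sum of the single-drug effects by 0.39.

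The fulvestrant effect on MALAT1 in MDA-MB-453 passed the threshold in the full fit, with a log2 fold change of 0.60 (SE 0.13, edgeR adjusted p = 0.0110). It was 1 of 156 genes called there, or 1.41% of those tested, and the 1 member called of 5 tested. The call was not kept without fulvestrant replicate 1 (0.40, edgeR adjusted p = 0.27) or replicate 2 (0.53, edgeR adjusted p = 0.16), without any 1 of the DMSO replicates, or with DESeq2 (0.61, adjusted p = 0.12). Genes with many A-rich windows were also higher in those libraries: a score over the tenth of genes with the most windows, members left out, was 0.058 and 0.066 log2 units in fulvestrant replicates 1 and 2, against −0.038 in replicate 3 and −0.047 to −0.031 under DMSO. With that score as a covariate, the MALAT1 log2 fold change was 0.07 (edgeR adjusted p = 0.99). The 3 combination libraries, at −0.00073 to 0.017, lay between these values. With the covariate the combination value of MALAT1 against DMSO was 2.11 and that of NEAT1 was 3.77, both given as values of the libraries used in the choice. The part of A-rich priming in any of these changes was not tested.

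**Figure D2:**
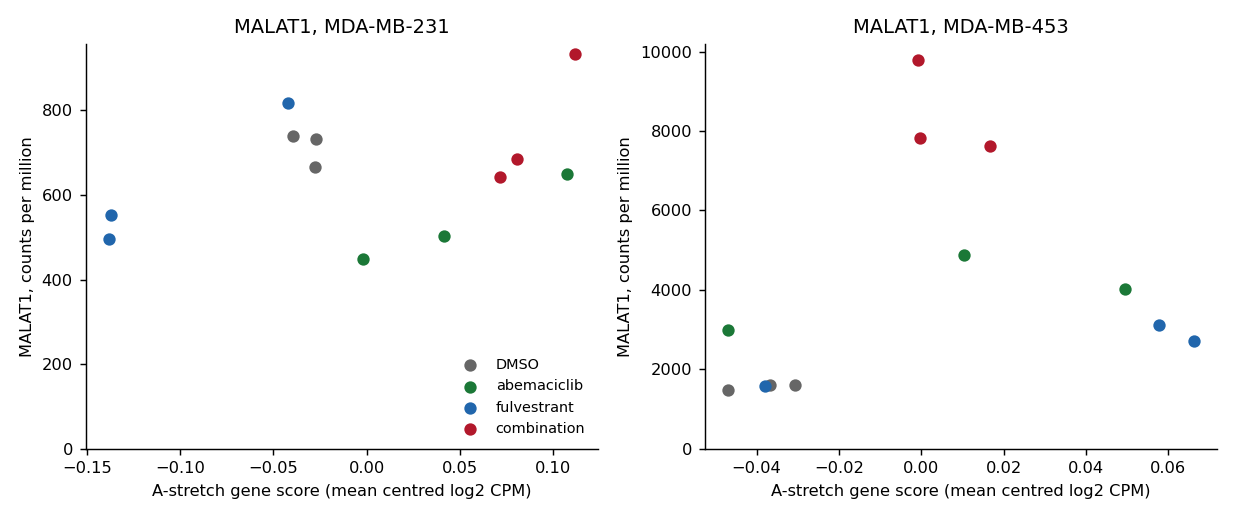
MALAT1 in CPM against the A-stretch gene score of the same library, the mean centred log2 CPM of the tenth of tested genes with the most A-rich windows; each point is 1 library, coloured by treatment. In MDA-MB-453, 2 fulvestrant libraries at scores of 0.058 and 0.066 lie above the third at −0.038, and the combination libraries lie highest at scores near 0.

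In MDA-MB-231 the MALAT1 groups overlapped more. DMSO libraries had 667, 732 and 740 CPM, and abemaciclib libraries had 449, 503 and 651 CPM, all lower than DMSO. Fulvestrant gave 819, 496 and 554 CPM and the combination gave 643, 933 and 686 CPM. Abemaciclib against DMSO was called lower, with a log2 fold change of −0.42 (SE 0.13, edgeR adjusted p = 0.00857), but not without abemaciclib replicate 1 (−0.31, edgeR adjusted p = 0.088) and not with DESeq2 (−0.41, adjusted p = 0.20). The combination against abemaciclib was 0.49 higher (95% interval 0.24 to 0.75, edgeR adjusted p = 0.118), and the combination exceeded the sum of the single-drug effects by 0.68 (edgeR adjusted p = 0.0802), neither of which passed the threshold. Of all genes, 0.0265% were called in the first of these comparisons and 0.124% in the second, and 0 members in each. Tested as a difference, the abemaciclib effect on MALAT1 was higher in MDA-MB-453 by 1.85 on the log2 scale (SE 0.23, edgeR adjusted p = 9.3e-09), with opposite signs in the lines. That for fulvestrant was 0.78 higher (edgeR adjusted p = 0.0641).

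NORAD, the cytoplasmic protein-binding RNA, rose with abemaciclib in both lines, and its change with fulvestrant alone passed the test in neither. In MDA-MB-231 the DMSO libraries had 61.3, 57.5 and 63.6 CPM and the fulvestrant libraries 50.8, 64.5 and 60.5 CPM. Abemaciclib gave 103, 123 and 144 CPM and the combination 133, 129 and 110.1 CPM, so that the libraries with abemaciclib were all above those without it. The log2 fold change against DMSO was 1.02 for abemaciclib (SE 0.13, edgeR adjusted p = 4.5e-08) and 1.02 for the combination (edgeR adjusted p = 3.5e-08), and the combination differed from abemaciclib by 0.00046 (95% interval −0.25 to 0.25). Against fulvestrant the combination was 1.07 higher (edgeR adjusted p = 1.3e-08).

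In MDA-MB-453 NORAD had 93.8, 127 and 99.2 CPM under DMSO and 220, 175 and 157 CPM under abemaciclib, without overlap. The log2 fold change was 0.87 (SE 0.11, edgeR adjusted p = 2.5e-08). Fulvestrant gave 121, 104 and 104 CPM (log2 fold change −0.02, edgeR adjusted p = 0.978), within the DMSO range. The combination gave 208, 249 and 230.6 CPM, 2.14-fold DMSO as a description. The abemaciclib effects of the lines differed by −0.15 (95% interval −0.52 to 0.22, edgeR adjusted p = 0.661), so a difference was not detectable. NORAD holds no A-rich window, and it was called in both lines under all 14 alternatives each.

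TUG1 rose with abemaciclib in each line, 1.28-fold in MDA-MB-453 and 1.27-fold in MDA-MB-231 on the fitted scale. In MDA-MB-231 it had 58.8, 63.4 and 68.2 CPM under DMSO, 73.8, 77.5 and 89.6 under abemaciclib and 75.2, 87.3 and 80.9 under the combination, with no overlap between DMSO and either. The log2 fold changes were 0.34 (SE 0.13, edgeR adjusted p = 0.0417) and 0.35 (SE 0.13, edgeR adjusted p = 0.0339), close to the threshold: of 14 alternatives each, 7 and 9 called them. Against fulvestrant, which gave 59.8, 54.0 and 55.8 CPM, the combination was 0.51 higher (edgeR adjusted p = 0.00203). The A-stretch score was also higher in those libraries, at 0.071 to 0.11 under the combination and −0.039 to −0.027 under DMSO, and with it as a covariate the TUG1 changes were 0.18 for abemaciclib and 0.12 for the combination against DMSO, and 0.14 for the combination against fulvestrant, none of them called.

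In MDA-MB-453 TUG1 had 103, 101 and 99.2 CPM under DMSO and 120, 128 and 116 CPM under abemaciclib, which did not overlap. The log2 fold change was 0.35 (SE 0.11, edgeR adjusted p = 0.0108), called in 13 of 14 alternatives and not without abemaciclib replicate 2 (edgeR adjusted p = 0.059). Fulvestrant gave 115, 93.3 and 116 CPM, on both sides of DMSO. The combination gave 130.5, 115 and 141 CPM, all above DMSO.

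OIP5-AS1 fell with abemaciclib in MDA-MB-453 and not measurably in MDA-MB-231. In MDA-MB-453 it had 138, 149 and 137 CPM under DMSO, 136, 134 and 135 under fulvestrant, 109, 103 and 103 under abemaciclib and 104, 109 and 105 under the combination. The libraries with abemaciclib were all below those without it. Abemaciclib against DMSO was a log2 fold change of −0.34 (SE 0.10, edgeR adjusted p = 0.00638), or 0.788-fold, called in all 14 alternatives. OIP5, the protein-coding gene on the other strand, went from 37.5 ± 3.16 to 5.43 ± 0.765 CPM in the same comparison (SD, n = 3, log2 fold change −2.70), and which of these reads came from the shared exon bases was not tested.

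In MDA-MB-231 OIP5-AS1 lay between 28.9 and 43.6 CPM in all 12 libraries, and its log2 fold change with abemaciclib was 0.12 (95% interval −0.23 to 0.48, edgeR adjusted p = 0.634), while OIP5 had a log2 fold change of −1.45. The abemaciclib effects of the lines on OIP5-AS1 differed by −0.46 (edgeR adjusted p = 0.0736), which 8 of 20 alternatives called.

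KCNQ1OT1 was a transcript of MDA-MB-231. There it had 23.2, 19.6 and 17.0 CPM under DMSO, 9.65, 25.2 and 28.2 under abemaciclib, 27.4, 15.1 and 6.72 under fulvestrant and 15.1, 23.6 and 17.3 under the combination. Its spread within the abemaciclib and fulvestrant groups was wider than any difference between group means, and no treatment comparison called it in the full fit. In MDA-MB-453 it had 5 counts in 4 of 12 libraries, of which 2 fell in DMSO libraries, and 0 in the combination libraries, which allows up to 0.293 CPM over that group. It was not tested within that line. Against 199 counts in the DMSO libraries of MDA-MB-231, the ratio of MDA-MB-231 to MDA-MB-453 was 106 (95% counting interval 29.0 to 884), and over all libraries, 811 against 5 counts, it was 163 (69.4 to 502). KCNQ1 itself had 11 counts in MDA-MB-453 and 0 in the other line.

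**Figure D3:**
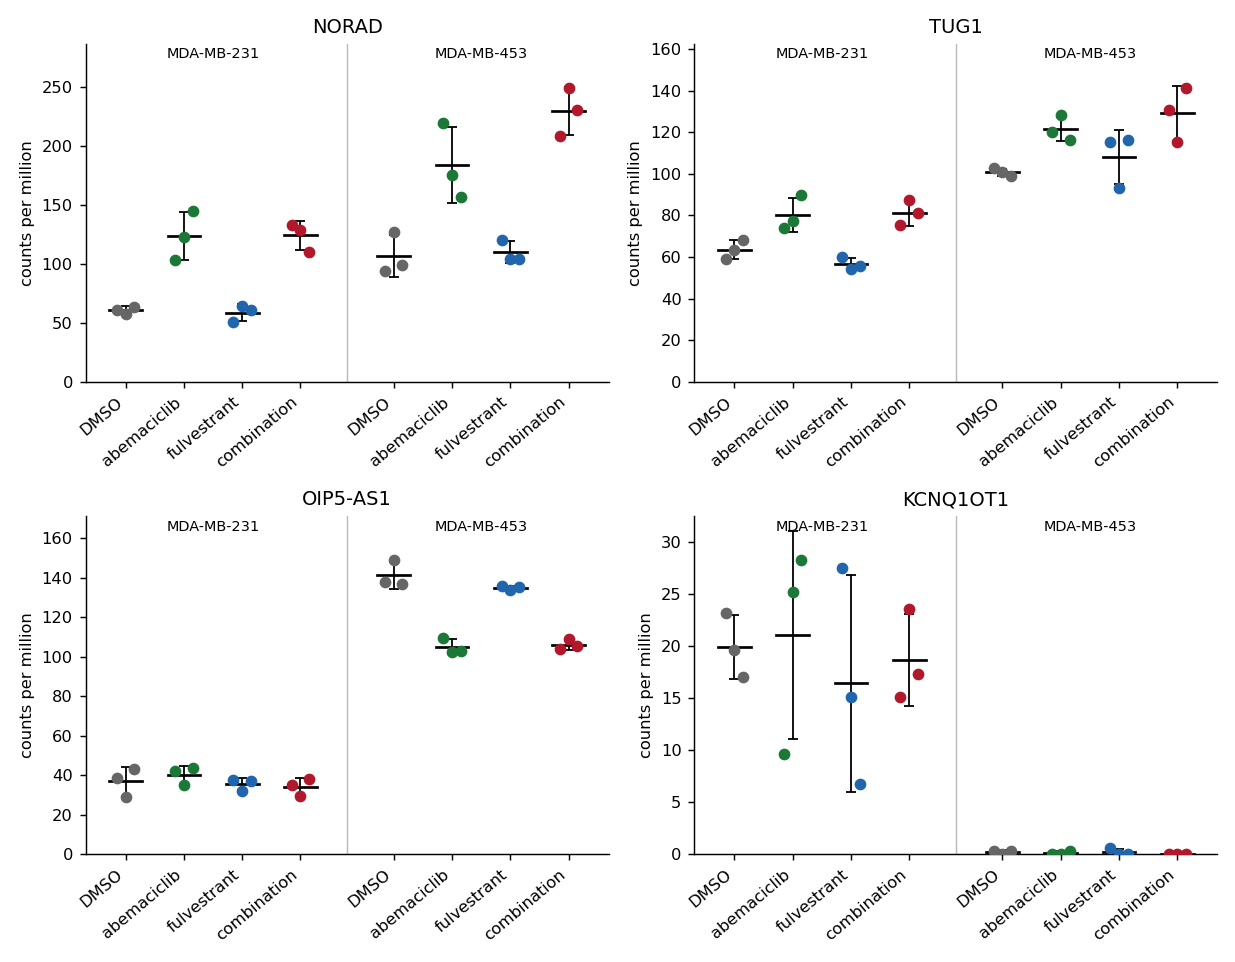
NORAD, TUG1, OIP5-AS1 and KCNQ1OT1 in CPM for each library; points are libraries, bars are group means with SD for n = 3, and each axis starts at 0. NORAD and TUG1 are higher in the abemaciclib and combination groups of both lines, OIP5-AS1 is lower in those groups of MDA-MB-453, and KCNQ1OT1 stays under 0.6 CPM in MDA-MB-453.

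Without treatment, the lines differed in 5 of the 6 members. Relative to MDA-MB-231 DMSO, MDA-MB-453 DMSO had more OIP5-AS1 (log2 fold change 2.00, edgeR adjusted p = 2.2e-18), MALAT1 (1.20, 6.1e-09), NORAD (0.88, 1.5e-07) and TUG1 (0.73, 8.7e-07), and less KCNQ1OT1. NEAT1 differed by −0.35 (95% interval −0.78 to 0.09, edgeR adjusted p = 0.152). Of all genes tested, 69.8% were called between the lines, so that 5 of 6 is near the background.

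The members called are set here beside the share of all genes called in the same comparison. Abemaciclib called 3 of 6 members in MDA-MB-231, NORAD and TUG1 higher and MALAT1 lower, where 33.7% of all genes were called. In MDA-MB-453 it called 5 of the 5 tested, NEAT1, MALAT1, NORAD and TUG1 higher and OIP5-AS1 lower, where 36.0% of genes were called. The combination in MDA-MB-231 called 2 of 6, NORAD and TUG1, against DMSO (35.4% of genes) and the same 2 against fulvestrant (36.1%). Fulvestrant in MDA-MB-231 called 0 members and 0.0% of genes by edgeR, with 799 genes at an unadjusted p under 0.05. For the difference between the lines, 2 members were called for the abemaciclib effect, NEAT1 and MALAT1 (20.7% of genes), and 0 for the fulvestrant effect (1.06%).

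Across the 24 libraries, with each gene centred within its line, the genes whose pattern was most like that of NEAT1 among 6664 others with a mean of at least 10 CPM in both lines were WSB1 (Pearson r = 0.906), MALAT1 (0.890), CCNL2 (0.890), HIBCH (0.872) and MRI1 (0.852). Within MDA-MB-453 their group means, like that of NEAT1, were highest under the combination. There CCNL2, a cyclin of nuclear speckles, had 20.0 CPM under DMSO and 58.1 under the combination, and WSB1, a subunit of a ubiquitin ligase, had 8.72 and 27.1. In MDA-MB-231 CCNL2 had 22.1 and 22.2 CPM in those groups, and WSB1 was at a higher level, with 53.3 and 55.9 CPM. Within MDA-MB-453 alone the closest genes included DDX5 (0.965), an RNA helicase, and SRSF5 (0.944), a splicing factor of the SR family. Least like NEAT1 were RPL38 (−0.876), a ribosomal protein gene, and HIGD2A (−0.842).

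For MALAT1 the closest genes after NEAT1 were NFE2L1 (0.856), a transcription factor of proteasome genes, TRIM56 (0.847), ACSL3 (0.843), a fatty acid-CoA ligase, and JUN (0.843), a subunit of AP-1. CFL1, the actin-severing cofilin, was least like it (−0.936), with 1948 CPM under DMSO and 1381 under the combination in MDA-MB-453. Within MDA-MB-231 the NEAT1 and MALAT1 levels correlated at 0.618 over 12 libraries, and MALAT1 was closest to PRRC2C (0.976) and KTN1 (0.972). TUG1 and NORAD correlated at 0.834 over the 24 libraries. These correlations are descriptions: the points share 4 treatments and, within a library, 1 scaling, and the NEAT1 pattern was the reason for the choice of RNAs.

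Among genes of paraspeckle, speckle and RNA decay proteins, more were called lower than higher with abemaciclib in each line. Of 31 paraspeckle protein genes, 2 rose and 15 fell in MDA-MB-231, with a median log2 fold change of −0.33 where the median of all tested genes was −0.00053. In MDA-MB-453, 2 rose and 16 fell, with a median of −0.40 beside −0.0019 for all genes. Over all genes, abemaciclib called 1908 higher and 1907 lower of 11314 (33.7%) in MDA-MB-231. In MDA-MB-453 it called 1843 higher and 2144 lower of 11080 (36.0%). These counts are the background for each list. In MDA-MB-231 RBM14 (−1.12), a paraspeckle protein needed for the bodies to form, HNRNPH3 (−0.99) and SFPQ (−0.87), a core paraspeckle protein that binds NEAT1, fell. In MDA-MB-453 HNRNPH1 (−1.95), the cold-inducible RBM3 (−1.78) and HNRNPH3 (−1.45) fell, and RBM3 was called higher in MDA-MB-231 (0.31, edgeR adjusted p = 0.0152). NEAT1 itself was called higher there and was not called in MDA-MB-231.

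Of 29 nuclear speckle and SR protein genes tested, 1 rose and 19 fell in MDA-MB-231 (median −0.45), a called share of 69.0%, among them SRSF4 (−1.11), TRA2B (−1.03) and SRSF1 (−1.02), all splicing regulators. In MDA-MB-453, 5 rose and 11 fell (median −0.20), or 55.2%. CLK4, a kinase of SR proteins, rose by 1.75 there, and SRSF2 (−1.49) and SRSF3 (−1.37) fell. The count of 5 went to 3 without DMSO replicate 1 or 3, or without abemaciclib replicate 2 or 3. Fulvestrant in MDA-MB-453 called 3 of this list, SRRM1 (0.56), BCLAF1 (0.40) and SRSF11 (0.40), all higher. That was 10.3% of the list, where 1.41% of all genes were called, and 0 genes of the other 6 lists of the list plot were called. With the A-stretch covariate only 1 of 11080 genes was called higher in that comparison, and without fulvestrant replicate 2 only 3 of 11345. In MDA-MB-231 fulvestrant called 0 genes of the 7 lists.

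Nuclear RNA decay and 3′ processing genes, which degrade or trim RNAs of this kind, were called lower for 14 and higher for 0 of 28 in MDA-MB-231 (median −0.40), or 50%. In MDA-MB-453, 10 fell and 3 rose (median −0.17), or 46.4%. The exosome subunits EXOSC9 (−1.47 in MDA-MB-231, −1.26 in MDA-MB-453) and EXOSC8 (−1.12, −1.19) fell in both lines. RPP40 (−1.30), a subunit of RNase P, fell in MDA-MB-453, and ZCCHC8 (−1.25), part of the nuclear exosome targeting complex, fell in MDA-MB-231.

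Among 8 partner genes of NORAD and OIP5-AS1, 1 rose and 2 fell in MDA-MB-231, and 2 rose and 2 fell of 7 tested in MDA-MB-453. The called share in MDA-MB-231, 37.5%, was near the 33.7% of all genes, and with 7 genes the 57.1% in MDA-MB-453 rests on 4 calls. RBMX (−0.92 in MDA-MB-231, −0.91 in MDA-MB-453), which binds NORAD, and ELAVL1 (−0.58, −0.66), which binds OIP5-AS1, fell in both. CCNG2, a cyclin of arrested cells, rose by 1.23 in MDA-MB-453 (edgeR adjusted p = 2.0e-07). In MDA-MB-231, where its mean was under 10 CPM, it rose by 1.71 (edgeR adjusted p = 0.0120). Of the imprinted genes around KCNQ1OT1, 2 rose and 1 fell of 5 tested in MDA-MB-231 and 2 rose and 1 fell of 4 in MDA-MB-453, too few to set against the background. PHLDA2, a placental growth repressor, rose in MDA-MB-231 (0.52) and fell in MDA-MB-453 (−0.34), a fall that was not called without DMSO replicate 2 (−0.30) or abemaciclib replicate 2 (−0.23). TSSC4 (−0.77) fell in MDA-MB-231, and CD81 (0.71) rose in MDA-MB-453. The combination in MDA-MB-231, tested against the same DMSO libraries, called 3 paraspeckle genes higher and 18 lower (median −0.37), 3 speckle and SR genes higher and 16 lower (median −0.37), and 1 RNA decay gene higher and 12 lower (median −0.37).

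**Figure D4:**
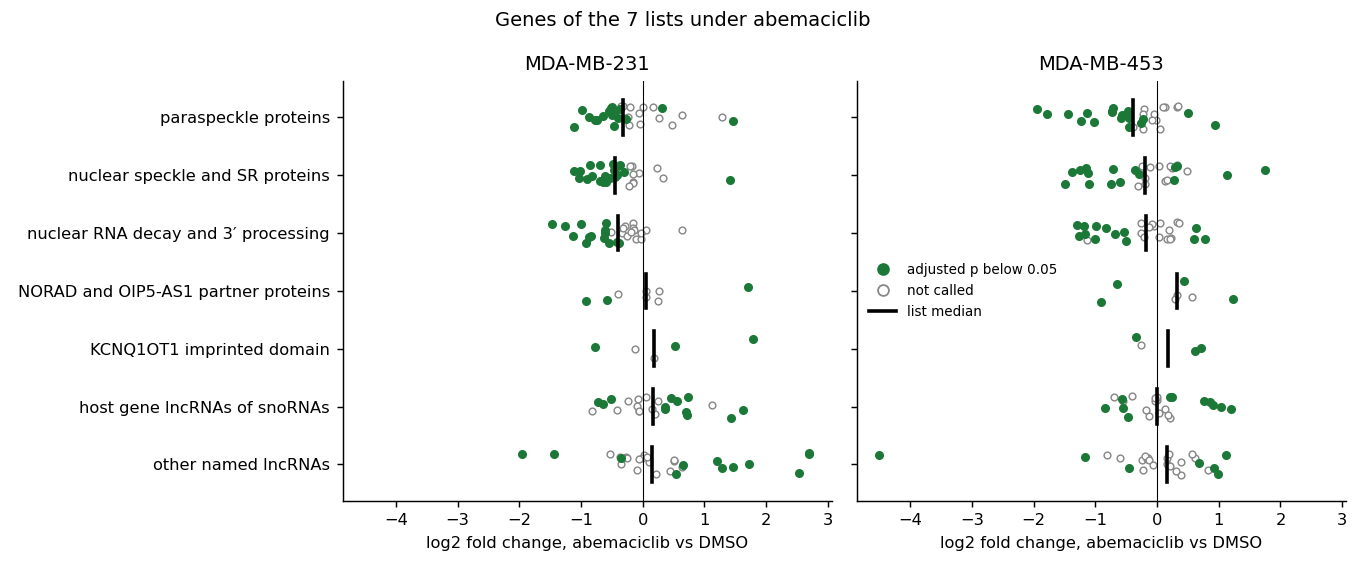
Log2 fold changes for abemaciclib against DMSO of each tested gene of 7 lists, in MDA-MB-231 and MDA-MB-453; filled points passed an adjusted p of 0.05, open points did not, and black bars are list medians. The medians of the paraspeckle, speckle and RNA decay lists lie between −0.45 and −0.17 in both lines, and those of the noncoding RNA lists between −0.00043 and 0.17.

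Other long noncoding RNAs moved in both directions with abemaciclib. Gene type was taken from GENCODE v44 by symbol, and 21476 of the 59610 lines of counts had no match. Of 12703 genes tested in either line, 94.3% had one. Long noncoding RNAs without a match are therefore missing from the counts, medians and shares given for this class. Of genes annotated as long noncoding, members left out, 61 rose and 23 fell of 334 tested in MDA-MB-231, with a median log2 fold change of 0.27, and 46 rose and 25 fell of 317 in MDA-MB-453, with a median of 0.10. The called shares, 25.1% and 22.4%, were below the 33.7% and 36.0% of all genes. In MDA-MB-231 EPB41L4A-AS1 (1.62), TMEM132D-AS1 (1.49) and SNHG19 (1.43; called lower in MDA-MB-453, −0.55, edgeR adjusted p = 0.000336) rose, and VPS9D1-AS1 (−1.57), DLEU2 (−1.44), host of the miR-15 and miR-16 genes, and SBDSP1 (−1.19) fell. In MDA-MB-453 DRAIC (1.39), LINC01133 (1.38) and SNHG5 (1.19) rose, and VPS9D1-AS1 (−1.69), DLEU2 (−1.17) and TMEM191A (−1.04) fell. VPS9D1-AS1 and DLEU2 were among the 3 lowest called in both lines at a mean of at least 10 CPM. TMPO-AS1, under that level and chosen after its values were seen, was also called lower in both lines, with −1.96 in MDA-MB-231. No fold is given for it in MDA-MB-453, where its counts under abemaciclib were near 0.

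Host genes of small nucleolar RNAs, whose introns carry those RNAs, rose for 9 and fell for 3 of 24 in MDA-MB-231 (median 0.17). In MDA-MB-453, 7 rose and 4 fell (median −0.00043). GAS5, a host gene that builds up in arrested cells, rose by 1.04 in MDA-MB-453 and by 0.72 in MDA-MB-231. SNHG1 fell in MDA-MB-231 (−0.73), and its change of −0.71 in MDA-MB-453 was not called (edgeR adjusted p = 0.062). Of other well-known long noncoding RNAs, 9 rose and 3 fell of 28 in MDA-MB-231 and 4 rose and 3 fell of 26 in MDA-MB-453, where HCG18 (1.12) and LINC00963 (0.99) rose. The count of 9 was 4 without MDA-MB-231 DMSO replicate 3.

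In the MDA-MB-453 combination the annotated long noncoding RNAs other than the members had a median log2 fold change of 0.38 against DMSO and 0.27 against abemaciclib, where the medians of all genes were 0.0037 and 0.0021. Host genes of small nucleolar RNAs had medians of 0.48 and 0.32 in those comparisons, and the paraspeckle genes −0.43 and 0.054. The share of counts on these other noncoding RNAs was 0.919% to 0.962% under the combination and 0.796% to 0.807% under DMSO. It is not set against the share of the 6 members, which were chosen for a rise in these libraries. These MDA-MB-453 medians describe the libraries that led to the choice of NEAT1 and were not tested. In MDA-MB-231 the combination against DMSO called 69 of the annotated long noncoding RNAs higher and 29 lower of 334, with a median of 0.19.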

How the data were processed

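RNA was measured in 24 libraries by QuantSeq 3′ FWD sequencing (single-end reads of 100 bases). Reads had been trimmed (BBDuk), aligned to hg38 (STAR) and assigned to GENCODE genes (featureCounts) by the authors, and the deposited values are raw counts, whole numbers with no normalisation. Strand, multiple alignments and duplicates are not stated. A single line without a gene name, holding 0 counts, was left out. In R 4.3.3, edgeR 4.0.16 quasi-likelihood models (filterByExpr, TMM scaling, 2-sided tests) were fitted to the 12 libraries of each line, testing 11314 genes (MDA-MB-231) or 11080 (MDA-MB-453), and to all 24 for differences between lines (12750 genes). Calls are at p under 0.05 after Benjamini-Hochberg adjustment over all genes tested. DESeq2 1.42.0 was an alternative. The members and gene lists, and the tests, were chosen with earlier results of these data known. Named genes were the members; up to 3 called genes of largest change per list and comparison with at least 10 CPM in the line; the 5 genes most and 2 least like NEAT1 or MALAT1 (log2 of CPM plus 1); and 3 higher and 3 lower annotated long noncoding RNAs under abemaciclib. OIP5 and KCNQ1 were added after their values were seen, as neighbours that share exons with a member. KCNQ1OT1 ratios carry exact Clopper-Pearson intervals, which, like the floor of 3 counts per group, cover counting error only. Fitting was tested on simulated data. Replicate pairs of a group differed by more than counting noise (chi-square per degree of freedom 2.64 to 8.65 in 24 pairs). Replicates are described as biological, and the biological coefficient of variation was 13.4% and 12.6%. Replicate numbers did not pair libraries: deviations from group means correlated at a median of 0.0023 (MDA-MB-231) and −0.0037 (MDA-MB-453) between libraries of the same number, with 0 of 18 pairs over 0.1 in each line. A sequence of 1 member is not reported here.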

Additional observations from a re-analysis of the deposited data

Results flagged for a closer look

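The abemaciclib effects on NEAT1 and MALAT1 differed between the lines by a test of the difference itself, coded as MDA-MB-453 minus MDA-MB-231. For NEAT1 the difference was 1.30 on the log2 scale (edgeR adjusted p = 0.00106), and NEAT1 rose in MDA-MB-453 and did not pass the test in MDA-MB-231. It lay between 1.05 and 1.52 in 20 alternatives, all of them called. For MALAT1 the difference was 1.85 (edgeR adjusted p = 9.3e-09), with a rise in MDA-MB-453 and a fall in MDA-MB-231. The difference lay between 1.58 and 2.27 in 20 alternatives, all of them called. The fall itself was called in 12 of 14 alternatives. Both differences use the MDA-MB-453 DMSO and abemaciclib libraries, which may have entered the choice of RNAs. Neither test can be taken as independent of that choice, and the alternatives refit the same libraries. Groups of 3 libraries are too small for a test of single outlying libraries.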

How the results depend on the processing

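NORAD with abemaciclib in both lines, and NEAT1, MALAT1 and OIP5-AS1 with abemaciclib in MDA-MB-453, were called in the same direction in every alternative run: DESeq2 size factors, no filter, DESeq2, only the groups compared, a replicate block, each library left out, no mitochondrial genes, scaling without the members, and the A-stretch score as a covariate. With that covariate, 4 values turned lower: KCNQ1OT1 in MDA-MB-231 for abemaciclib against DMSO (−1.07) and the combination against fulvestrant (−2.24), and MALAT1 there for the combination against DMSO (−0.67) and against fulvestrant (−0.90). All 4 had not been called before and were called then. The score itself follows treatment in MDA-MB-231, so that score and treatment cannot be told apart there. The covariate also called NEAT1 lower with abemaciclib in that line (−0.74, edgeR adjusted p = 0.015). It called KCNQ1OT1 lower there for the combination against DMSO (−1.67, edgeR adjusted p = 0.00114). MALAT1 was called lower with fulvestrant in MDA-MB-231 without fulvestrant replicate 1 (−0.43, edgeR adjusted p = 0.019). A further 78 member values changed sign without being called in either fit.

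The replicate block took the genes called for the interaction in MDA-MB-231 from 14 to 6 and changed the count of members called in no comparison by more than 1.5 times. Its adjusted p for TUG1 with abemaciclib in MDA-MB-231 was 0.050. In MDA-MB-231, no filter called 14 genes for fulvestrant against DMSO (0 with the filter), 49 for the combination against abemaciclib (3) and 132 for the interaction. The combination against abemaciclib gave 5 with DESeq2 size factors, 9 without mitochondrial genes, 11 with the covariate, 30 with only the groups compared and 59 with DESeq2, which gave 57 for the interaction. The covariate gave 0 for the interaction, 2504 for the combination against DMSO (4000) and 1385 against fulvestrant (4082). MALAT1 was the 1 member called for the combination against abemaciclib with no filter or only the groups compared, and the 1 for the interaction with no filter.

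For fulvestrant in MDA-MB-453, 269 genes were called with no filter, 290 with DESeq2 and 12 with the covariate (156), and 0 members with the last 2. For the difference between lines in the fulvestrant effect the counts were 297, 413 and 0 (135), and MALAT1 was the 1 member called with no filter and without mitochondrial genes. Leaving out 1 library gave 0 to 205 genes and 0 to 1 member for fulvestrant in MDA-MB-231, where the 205 came without fulvestrant replicate 1. It gave 1 to 2 members for the combination against DMSO, 0 to 96 genes and 0 to 1 member for the combination against abemaciclib (96 without abemaciclib replicate 3), and 2 to 449 genes and 0 to 1 member for the interaction (449 without fulvestrant replicate 1). In MDA-MB-453 fulvestrant gave 5 to 786 genes and 0 to 1 member (786 without fulvestrant replicate 3), and the fulvestrant difference 2 to 615 genes and 0 to 1 member. The cause was not tested.

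A window of 12 A in 15 bases placed NEAT1 above 81.6% and TUG1 above 68.8% of tested genes. Depth limits KCNQ1OT1 most, with 23 to 103 counts a library in MDA-MB-231.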
